A study of Arabidopsis thaliana with 6 samples.

Results

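The transcripts of the mitochondrial genome were measured in anthers of Arabidopsis thaliana. The members were all loci whose identifier starts with ATMG, the prefix of mitochondrial genes in this species, and they were 120 of the 33027 loci in the count tables. In each library the estimated counts of a locus were divided by the library total and are given as CPM, the counts in 1000000 of that total. Fe-deficient plants (3 libraries) received no NaFe-EDTA in the nutrient solution, and control plants (3 libraries) received it. Both groups were wild-type Col-0, spent 10 days on agar and then 18 days in a hydroponic system, both with iron, before a treatment of 18 days. Whole anthers of the same stage were taken, and no label states that replicates of a group are from different plants, so the spread between them may be technical. An anther is a mixed tissue, and in bulk RNA fewer cells of a type and less RNA per cell cannot be told apart.

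The mitochondrial genome of a plant holds the genes of its own large, small and 5S-type ribosomal RNA, some ribosomal proteins, a maturase, and a few core subunits of the respiratory complexes. All other subunits come from nuclear genes and are imported. Complexes I, III and IV carry electrons through iron-sulphur clusters, hemes or copper, and complex V makes ATP. In anthers, the tapetum and the developing pollen are rich in mitochondria, and defects of mitochondrial genes are known from many plants as cytoplasmic male sterility. Plant mitochondrial transcripts are edited from C to U, and a poly(A) tail marks them for decay, whereas the library kit named in the labels selects poly(A) RNA.

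A large piece of the mitochondrial genome is also present in the nucleus, on chromosome 2 near the centromere, and this sets what can be read from the counts of single genes. In a comparison of RefSeq sequences (assembly TAIR10.1), 21 of the listed mitochondrial genes had an annotated transcript of near-identical sequence there, at 22 nuclear loci between chr2:3239693-3503476. Near-identical means at least 95% of bases identical over at least 80% of the gene, and 12 of the 21 genes were identical over their whole length. The stretches below are from the nuclear copies. Those of rps12, a protein of the small ribosomal subunit, and atp8, a subunit of complex V, show 60 bases each from the start codon, at chr2:3270410-3270469 and chr2:3386292-3386351 on the plus strand. They are shown because both copies equal the mitochondrial gene over all its 378 and 477 bases, so that only reads across an edited site could separate them. Those of matR, the maturase, and nad5, a subunit of complex I, show 61 bases each, at chr2:3402613-3402673 and chr2:3397696-3397756 on the minus strand. Capitals mark the base at which the copy differs from the RefSeq mitochondrial gene. The matR copy has 5 such bases in 1968 aligned and the nad5 copy 1 in 1447. Within the aligned bases, only reads across them or across an edited site could thus be told apart.
rps12 copy (AT2G07675): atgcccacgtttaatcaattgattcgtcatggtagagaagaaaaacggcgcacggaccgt
atp8 copy (AT2G07707): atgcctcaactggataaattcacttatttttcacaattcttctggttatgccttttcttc
matR copy (AT2G07712): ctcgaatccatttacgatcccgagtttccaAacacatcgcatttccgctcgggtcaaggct
nad5 copy (AT2G07711): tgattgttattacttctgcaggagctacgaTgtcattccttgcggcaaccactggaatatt

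The libraries held 16818176, 19408488 and 21666427 estimated counts in Fe-deficient libraries 1, 2 and 3, against 18794855, 17474137 and 22710901 in controls 1, 2 and 3. Mitochondrial loci held 24707.9, 12699.1 and 16329.8 counts in Fe-deficient libraries, against 10280.1, 10393.8 and 11673.4 in controls. Without ribosomal RNA these sums were 875, 946 and 897 counts in Fe-deficient libraries, against 1066, 925 and 626 in controls, so single messenger loci rest on few counts. Of the 120 loci, 87 had a count in some library and 33 had none in any. Between 56 and 62 loci had at least 1 count in a given library, and 31 had at least 3 counts in all 6. A count of 0 allows a level of up to 0.132 to 0.178 CPM, depending on the library (3 counts per library). These floors cover counting error only, and not how reads were divided between near-identical sequences. Of the 120 loci, 30 passed the count filter and were tested.

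As a sum, the mitochondrial loci were higher in Fe-deficient anthers, and nearly all of this sum was ribosomal RNA. The sum was 1469, 654 and 754 CPM in Fe-deficient libraries 1, 2 and 3, against 547, 595 and 514 in controls 1, 2 and 3. All 3 Fe-deficient libraries lay above all 3 controls, and Fe-deficient 1 stood far above the other two. The mean was 1.74 times that of controls, and 1.28 times without Fe-deficient 1. No test was made on sums over loci.

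Ribosomal RNA made up 96.5%, 92.6% and 94.5% of the mitochondrial counts in Fe-deficient libraries 1, 2 and 3, against 89.6%, 91.1% and 94.6% in controls. The small-subunit RNA rrn18 (ATMG01390) had 804, 308 and 310 CPM in Fe-deficient libraries 1, 2 and 3, against 248, 281 and 246 in controls. The large-subunit RNA rrn26 (ATMG00020) had 613, 297 and 402 in Fe-deficient libraries, against 241, 260 and 240 in controls. For both RNAs the groups did not overlap. The controls lay close together, and Fe-deficient 1 was the highest library for both. The plot of the ribosomal RNAs beside all other loci shows this by library.

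**Figure D1:**
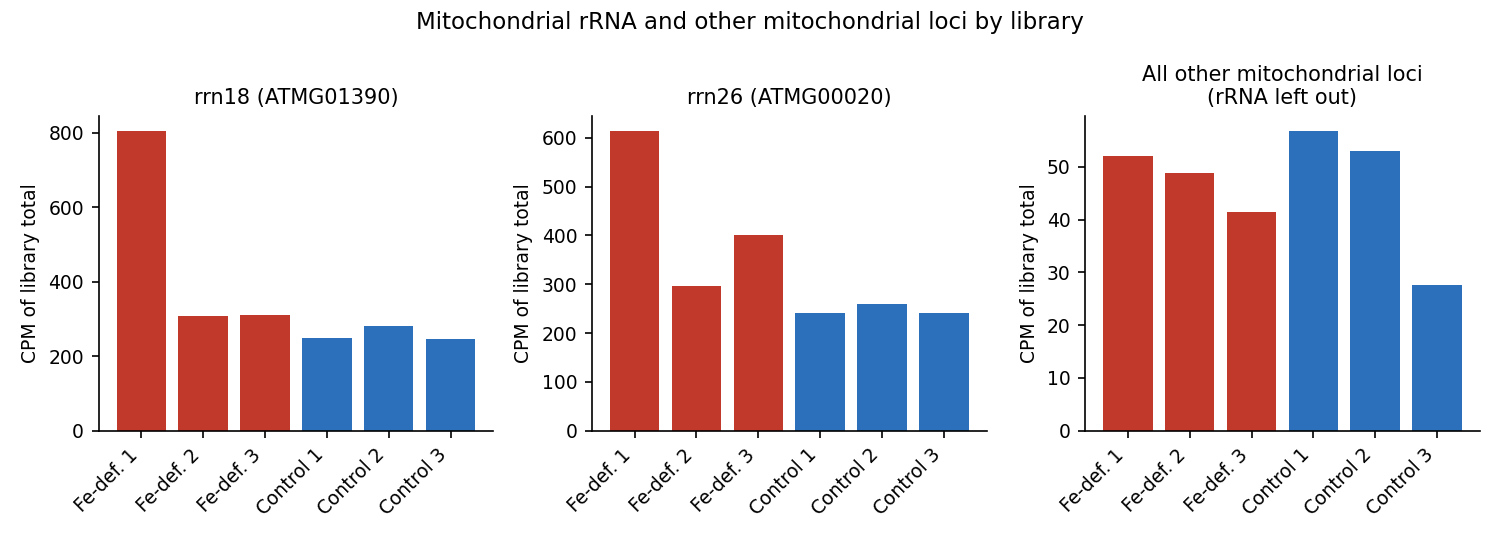
CPM of the library total for rrn18, for rrn26 and for the sum of all other mitochondrial loci, 1 bar per library, Fe-deficient in red and control in blue. For both ribosomal RNAs all Fe-deficient bars lie above all control bars and Fe-deficient 1 is the highest. For the other loci the groups overlap, and control 3 is the lowest at 27.6.

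Neither RNA passed the test across all loci. The log2 fold change of rrn26 was 1.00 (SE 0.30, unadjusted p = 0.0153, Benjamini-Hochberg adjusted p = 0.331, edgeR quasi-likelihood test). That of rrn18 was 1.07 (SE 0.45, unadjusted p = 0.052, adjusted p = 0.372, edgeR). Without Fe-deficient 1 the fold changes were 0.60 for rrn26 and 0.37 for rrn18. In DESeq2 the adjusted p was 0.0524 for rrn26 and 0.169 for rrn18. The third RNA, rrn5 (ATMG01380), part of the large subunit, had 5, 10 and 11 counts in Fe-deficient libraries, against 12, 15 and 8 in controls, and did not pass the count filter. It is 118 bases long, and its groups overlapped.

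The ratio of rrn18 to rrn26 was 1.31, 1.04 and 0.773 in Fe-deficient libraries 1, 2 and 3, against 1.03, 1.08 and 1.02 in controls. The controls were within a narrow range, and the Fe-deficient libraries lay on both sides of it. Other ribosomal RNA varied between the libraries too. Nuclear ribosomal RNA (3 loci) summed to 16228, 4125 and 4162 CPM in Fe-deficient libraries 1, 2 and 3, against 7667, 4362 and 2725 in controls. Plastid ribosomal RNA (4 loci) summed to 1938, 603 and 2096 in Fe-deficient libraries, against 1326, 689 and 1883 in controls. Nuclear ribosomal RNA was highest in Fe-deficient 1, where rrn18 and rrn26 were highest too, and for both sums the groups overlapped. The part of this variation in the mitochondrial values was not tested. The longest identical stretch shared with the plastid counterpart was 35 bases for rrn18 and 27 for rrn26. No annotated nuclear transcript met the rule for a near-identical copy of either gene, and short or less similar matches were not kept.

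Markers of anther cell types also differed between the libraries. Summed markers of late pollen (12 loci, of which ANX2 lacked a count in some library) were at 3819 to 9998 CPM in Fe-deficient libraries, against 1129 to 4302 in controls. Summed markers of the tapetum (15 loci, of which DYT1 lacked a count in some library) were at 1253 to 3158 in Fe-deficient libraries, against 4274 to 8034 in controls. Fe-deficient 1 and 2 had the most late pollen RNA and the least tapetum RNA. Summed markers of green tissue (6 loci) were at 3256 to 5276 in Fe-deficient libraries, against 4451 to 6362 in controls. No marker was at 0 in all libraries. The part of these differences in the mitochondrial values was not tested.

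Without ribosomal RNA, the mitochondrial loci did not separate the groups. Their sum was 52.0, 48.7 and 41.4 CPM in Fe-deficient libraries 1, 2 and 3, against 56.7, 52.9 and 27.6 in controls. The ratio of means was 1.04, and control 3 was the lowest library. The subunits of the respiratory complexes (23 loci) summed to 33.4, 31.4 and 25.6 in Fe-deficient libraries, against 37.2, 33.0 and 17.8 in controls. Here too the groups overlapped and control 3 was the lowest.

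By role, complex I (14 loci) summed to 12.4, 17.0 and 13.1 CPM in Fe-deficient libraries 1, 2 and 3, against 18.6, 16.1 and 7.86 in controls. Complex IV (3 loci) summed to 7.90, 6.17 and 4.01 in Fe-deficient libraries, against 7.38, 6.33 and 3.91 in controls. Complex V (5 loci) summed to 13.1, 8.24 and 8.53 in Fe-deficient libraries, against 11.2, 10.6 and 6.03 in controls. In each of the 3 complexes the groups overlapped and control 3 was the lowest library of all. The single complex III locus, cob, was listed at 0 in all 6 libraries.

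The 4 loci for cytochrome c maturation, which attach heme to cytochromes, summed to 0.593, 0.716 and 0.323 in Fe-deficient libraries, against 0.523, 1.12 and 0.355 in controls. The maturase matR and the translocase subunit mttB together had 2.36, 0.934 and 1.66 in Fe-deficient libraries, against 1.77, 1.17 and 1.03 in controls. The 82 other loci, most of them short reading frames without a listed role, summed to 9.83, 11.1 and 9.23 in Fe-deficient libraries, against 12.4, 13.5 and 5.82 in controls. These 3 sums overlapped between the groups.

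**Figure D2:**
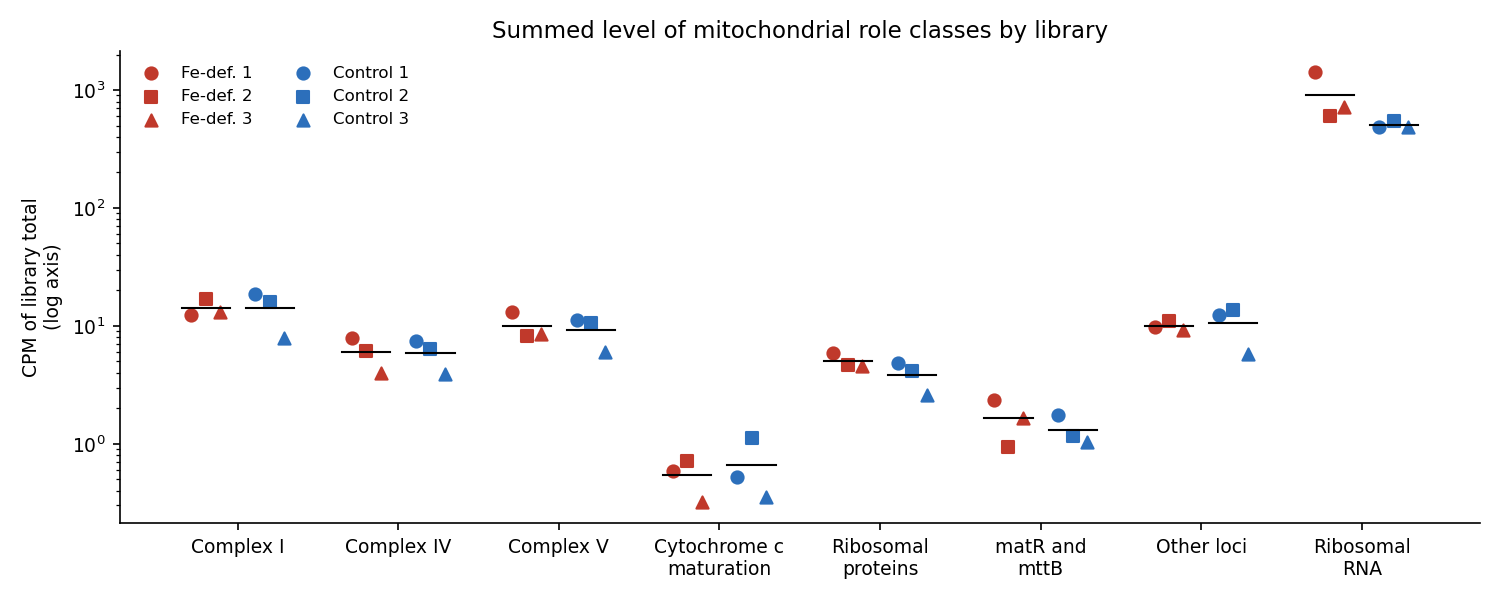
Summed CPM of the library total for 8 role classes of mitochondrial loci on a log axis, 1 point per library, Fe-deficient left in red and control right in blue, with lines at the group means. Ribosomal RNA is the class in which all Fe-deficient points lie above all control points, and control 3 is the lowest library in complexes I, IV and V.

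Ribosomal proteins (6 loci) summed to 5.87, 4.65 and 4.53 CPM in Fe-deficient libraries, against 4.84, 4.14 and 2.58 in controls. The groups overlapped, with a ratio of means of 1.30. As a share of the mitochondrial counts without ribosomal RNA, ribosomal proteins were 11.3%, 9.53% and 10.9% in Fe-deficient libraries, against 8.54%, 7.82% and 9.36% in controls. On this scale the groups did not overlap. The summed respiratory subunits were 5.68, 6.75 and 5.66 times the summed ribosomal proteins in Fe-deficient libraries, against 7.68, 7.97 and 6.90 times in controls, again with no overlap. This separation ended once the nuclear copies were counted with their mitochondrial genes. The ratio of respiratory subunits to ribosomal proteins was then 5.12, 4.01 and 3.49 in Fe-deficient libraries, against 3.99, 3.82 and 4.74 in controls.

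The nuclear copies held most of the counts of the genes that have one. Over all libraries, the 21 genes with a copy had 2259 counts at the mitochondrial loci and 7220 at the nuclear loci, and 16 of the 21 had more at the nuclear loci. Of these 16, 3 (atp8, ccmC and rps12) had no listed mitochondrial locus, so their counts could stand only at the nuclear loci. Some counted nuclear transcripts are much longer than the gene, as for nad7 (6063 bases against 1185), nad4 (5949 against 1488) and rpl2 (2170 against 1050). The copy of the nad5 part at ATMG00513 is also longer (2277 against 1446). Counts there can come from sequence that the mitochondrial locus lacks, so these sums do not divide the same sequence. For cob, which encodes cytochrome b of complex III, the nuclear locus AT2G07727 had 4.58, 2.83 and 2.54 CPM in Fe-deficient libraries, against 3.19, 2.46 and 1.76 in controls. The RefSeq sequence of that locus holds all 1182 bases of cob without a mismatch, while cob itself (ATMG00220) was at 0. The aligned sequence is 3243 bases long and the counted transcript 1467. For all copies the RefSeq sequences were aligned, and not the counted transcripts themselves. For atp6-1, a subunit of complex V, the split was the other way: ATMG00410 held 186 counts, whereas its copies AT2G07741 (identical) and AT2G07699 (2 mismatches) held none. Salmon divides reads that match several transcripts by a model, so counts at such loci cannot be assigned to the mitochondrion or the nucleus.

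The mitochondrial loci of atp8, ccmC and rps12 have no row in the tables analysed here, and counts stood only at the nuclear copy. The rps12 copy AT2G07675 had 3.81, 10.3 and 7.38 CPM in Fe-deficient libraries, against 10.2, 10.4 and 2.42 in controls. The atp8 copy AT2G07707 had 1.55, 0.98 and 0.37 in Fe-deficient libraries, against 1.49, 1.26 and 0.70 in controls. The copy of ccmC, AT2G07771, had 22.7 counts over all 6 libraries. In none of the 3 did the groups separate.

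**Figure D3:**
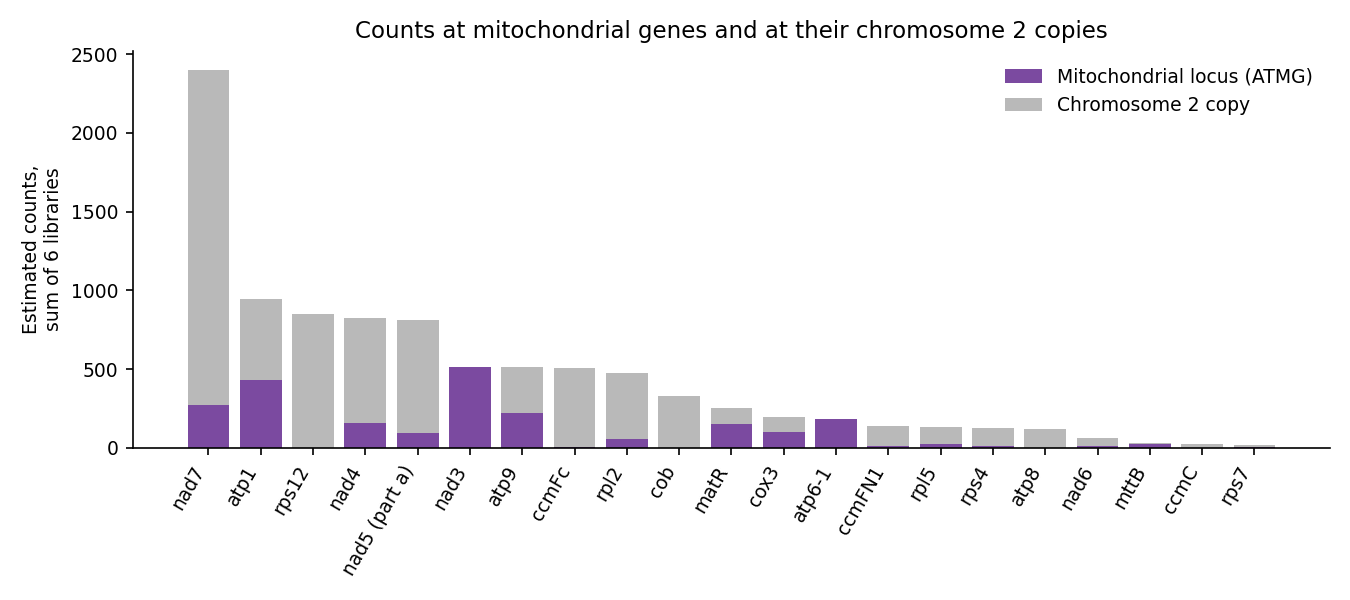
Estimated counts summed over all 6 libraries for 21 mitochondrial genes, stacked by where they were counted, at the mitochondrial locus (purple) or at the chromosome 2 copy (grey). For nad7 the chromosome 2 copy held 2132 counts and the mitochondrial locus 269, and for cob, rps12, atp8 and ccmC the mitochondrial part is 0. Of these, rps12, atp8 and ccmC have no listed mitochondrial locus. The counted transcript of the nad7 copy is 6063 bases long, against 1185 for nad7 itself.

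Of the 30 tested mitochondrial loci none passed an adjusted p of 0.05 in the edgeR quasi-likelihood test, as none of the 21267 tested loci of the series did (0% called). At an unadjusted p under 0.05 there were 2 of 30, rrn26 and rpl16, or 6.67%, against 13.4% of all tested loci. Both were higher in Fe-deficient libraries, as were 7.34% of all tested loci at that p. DESeq2 called 717 of 21847 loci (3.28%, with 2.01% higher in Fe-deficient libraries) and none of the mitochondrial ones. The lowest adjusted p of a mitochondrial locus was just above the threshold, at 0.0524 for rrn26 (unadjusted p = 0.0018, DESeq2). Of 86 mitochondrial loci that DESeq2 fitted, 3 had an unadjusted p under 0.05, against 14.1% of the 27066 loci fitted. The median log2 fold change was 0.28 over the 30 loci and 0.0025 over all tested loci, and 20 of the 30 (66.7%) had a positive one, against 50.3% of all. Scaled by plain library totals, the medians were 0.12 over the mitochondrial loci and -0.15 over all loci. Relative to controls, CPM thus lie lower than TMM-scaled values in Fe-deficient 1 and 2, whose TMM factors were 0.884 and 0.909. The factor of Fe-deficient 3 was 1.06, and those of controls were 1.05 to 1.06. Then 16 of the 30 were positive (53.3%, against 35.3% of all loci), and in TPM it was 16 of 32 (50%, against 29.1%). Without control 3 the median of the mitochondrial loci was 0.0043, and without Fe-deficient 1 it was 0.094.

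In CPM, 5 of the 30 (16.7%) were higher in all Fe-deficient libraries than in all controls, against 5.89% of all tested loci, and none was lower in all, against 16.6%. The 5 were the ribosomal RNAs rrn18 and rrn26, the ribosomal protein genes rpl16 and rpl2, and cox3. Scaled by TMM, the factor of the edgeR fit, they were 7 (23.3%, against 9.94% of all loci), with nad7 and ATMG00660 added.

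The large-subunit ribosomal protein gene rpl16 (ATMG00080) had 2.35, 1.37 and 1.34 CPM in Fe-deficient libraries, against 1.12, 0.838 and 0.572 in controls. Its log2 fold change was 1.18 (SE 0.44, unadjusted p = 0.0355, adjusted p = 0.358, edgeR), and it rests on 13 to 39.6 counts per library. No nuclear copy of rpl16 was found by the rule above. Its counts were fractional in Fe-deficient 1 and 2 and control 2 (39.592, 26.54 and 14.64). Those of rps3 were fractional in the same libraries (49.408, 38.46 and 39.36). Reads were thus divided between loci there, and rpl16 and rps3 may not be independent of each other. The gene rpl2 (ATMG00560), also of the large subunit, had 0.579, 0.680 and 0.609 in Fe-deficient libraries, against 0.565, 0.204 and 0.159 in controls. Fe-deficient 1 and control 1 lay close to each other, and the log2 fold change was 1.07 (SE 0.54, adjusted p = 0.405, edgeR), or 1.75 without control 1. The mitochondrial locus held 11.3% of the counts of rpl2. With the nuclear copy AT2G07715 the sum was 4.58, 3.25 and 5.40 in Fe-deficient libraries, against 3.94, 4.35 and 3.13 in controls, and the groups overlapped.

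The small-subunit gene rps3 (ATMG00090) had 2.94, 1.98 and 2.54 CPM in Fe-deficient libraries, against 2.61, 2.25 and 1.85 in controls, with a log2 fold change of 0.31 (adjusted p = 0.636, edgeR). The remaining ribosomal protein loci, rpl5, rps4 and rps7, were at 0 in 3 or more libraries. Thus rpl5 (ATMG00210) was at 0 in all 3 Fe-deficient libraries and had 10.4, 12.7 and 0 counts in controls. Its nuclear copy AT2G07725 had counts in all 6 libraries, so these zeros cannot be read as absence.

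In complex IV, cox3 (ATMG00730), which encodes subunit III of cytochrome c oxidase, had 1.78, 0.825 and 0.844 CPM in Fe-deficient libraries, against 0.517, 0.442 and 0.751 in controls. Its log2 fold change was 1.14 (SE 0.49, unadjusted p = 0.0578, adjusted p = 0.375, edgeR), or 0.61 without Fe-deficient 1. With its nuclear copy AT2G07687, which holds all 798 bases without a mismatch, the sum was 2.79, 1.60 and 1.66 in Fe-deficient libraries, against 1.70, 1.26 and 1.14 in controls. The groups then overlapped at control 1.

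The catalytic subunit gene cox1 (ATMG01360) had 3.92, 3.25 and 2.17 CPM in Fe-deficient libraries, against 4.63, 3.66 and 2.11 in controls. Its groups overlapped almost wholly, and library 3 was the lowest of each group. The copper-binding subunit gene cox2 (ATMG00160) had 2.19, 2.10 and 0.999 in Fe-deficient libraries, against 2.23, 2.22 and 1.05 in controls, and library 3 was again the lowest of each group. The log2 fold changes of cox1 (0.03) and cox2 (0.14) were near 0 and turned negative with plain library totals.

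**Figure D4:**
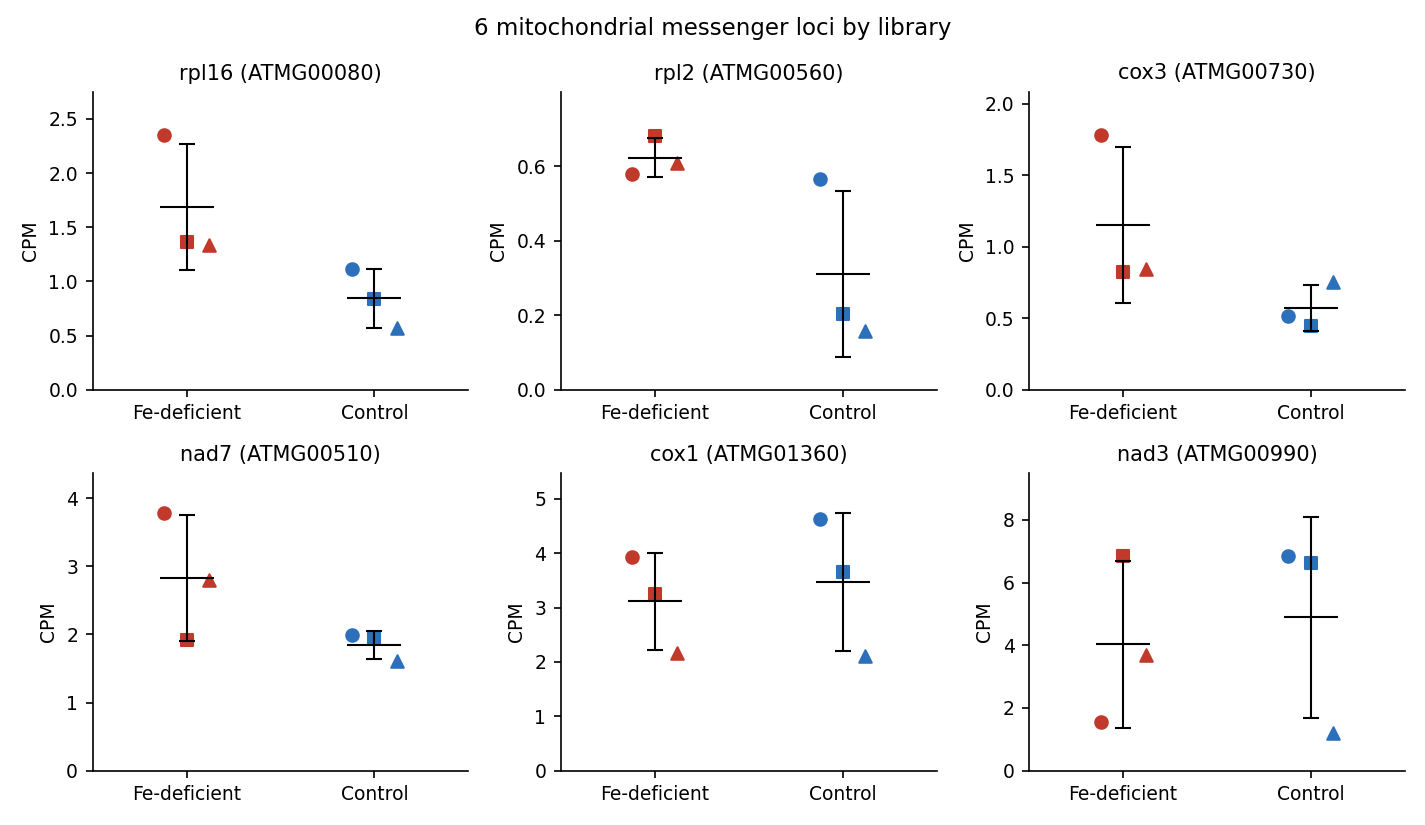
CPM of the library total for rpl16, rpl2, cox3, nad7, cox1 and nad3, 1 point per library (circle, square and triangle for replicates 1, 2 and 3), Fe-deficient left in red and control right in blue, with the mean and SD in black (n = 3 each). Groups do not overlap for rpl16, rpl2 and cox3 and overlap for nad7, cox1 and nad3, and nad3 ranges from 1.55 to 6.85 in Fe-deficient libraries and from 1.19 to 6.86 in controls.

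In complex I, nad7 (ATMG00510), a subunit of the arm that takes up electrons from NADH, had 3.78, 1.92 and 2.79 CPM in Fe-deficient libraries, against 1.99, 1.95 and 1.61 in controls. The log2 fold change was 0.77 (SE 0.35, unadjusted p = 0.0658, adjusted p = 0.379, edgeR), and 0.45 without Fe-deficient 1, while Fe-deficient 2 lay among the controls. Beside the copy AT2G07709, the mitochondrial locus held 11.2% of the counts of nad7, and the sum of both was 27.0, 20.7 and 19.1 in Fe-deficient libraries, against 19.8, 22.6 and 16.1 in controls. The counted transcript of that copy is 6063 bases long, against 1185 for nad7. Another subunit of that arm, nad9 (ATMG00070), for which no copy was found by the rule above, had 1.72, 1.39 and 1.11 in Fe-deficient libraries, against 1.65, 1.15 and 0.837 in controls. The groups of nad9 overlapped.

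The membrane subunit gene nad3 (ATMG00990) varied widely within both groups. It had 1.55, 6.85 and 3.69 CPM in Fe-deficient libraries, against 6.86, 6.62 and 1.19 in controls. Fe-deficient 2 and controls 1 and 2 were high, whereas Fe-deficient 1 and control 3 were low, so that the spread within a group was larger than the difference between groups. The rps12 copy was high and low in the same libraries: Fe-deficient 2 and controls 1 and 2 were between 10.2 and 10.4, and Fe-deficient 1 and control 3 were at 3.81 and 2.42. The annotated copies of nad3 (AT2G07751) and rps12 lie 45 bases apart on the same strand of chromosome 2, as the genes of the cluster are known to lie side by side in plant mitochondria. This pair was chosen after its values were seen.

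The genes nad1, nad2 and nad5 are cut into separately encoded pieces that are joined by trans-splicing, and the tables list the pieces as separate loci. The 3 nad5 pieces add up to 2010 bases and the 3 nad1 pieces to 978, the lengths of the RefSeq coding sequences. The nad2 pieces are listed at 578 and 922 bases and do not add up to the RefSeq length of 1467. The piece of nad5 with the identifier ATMG00665 is 22 bases long and was at 0 in all libraries. The other nad5 pieces had log2 fold changes of 0.08 (ATMG00513) and 0.11 (ATMG00060), and the tested nad2 pieces -0.58 (ATMG00285) and -0.15 (ATMG01320). Of the 10 tested complex I loci, 6 had a positive and 4 a negative log2 fold change, and none had an unadjusted p under 0.05 in edgeR.

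In complex V, atp1 (ATMG01190), the alpha subunit of the catalytic head, had 6.19, 2.81 and 4.08 CPM in Fe-deficient libraries, against 4.03, 2.65 and 2.66 in controls. Its log2 fold change was 0.66 (SE 0.39, adjusted p = 0.458, edgeR), or 0.25 without Fe-deficient 1, and the groups overlapped. The ring subunit gene atp9 (ATMG01080) had 2.94, 2.23 and 1.22 in Fe-deficient libraries, against 2.27, 2.30 and 0.810 in controls. Both atp6 loci had a negative log2 fold change, of -0.14 for atp6-1 (ATMG00410) and -0.29 for atp6-2 (ATMG01170), with adjusted p of 0.91 and 0.817 in edgeR. These loci share a stretch of 761 bases, so their counts are not independent of each other.

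The maturase gene matR (ATMG00520), which lies in an intron of nad1 and acts in splicing, had 2.06, 0.882 and 1.66 CPM in Fe-deficient libraries, against 1.34, 1.01 and 0.809 in controls, with a log2 fold change of 0.71 (SE 0.43, adjusted p = 0.47, edgeR), or 0.36 without Fe-deficient 1. Of the loci without a listed role, 6 of 82 were tested and 2 had a mean of 1 or more in CPM. ATMG00660 had 2.20, 2.06 and 2.49 in Fe-deficient libraries, against 2.13, 1.77 and 1.01 in controls. ATMG01000 had 1.82, 2.51 and 1.96 in Fe-deficient libraries, against 2.56, 2.65 and 0.740 in controls. The 4 others tested, ATMG00690, ATMG01090, ATMG01200 and ATMG01370, had log2 fold changes from -0.63 to 0.86. The highest of these, ATMG01200, was at 0.044 without Fe-deficient 1.

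**Figure D5:**
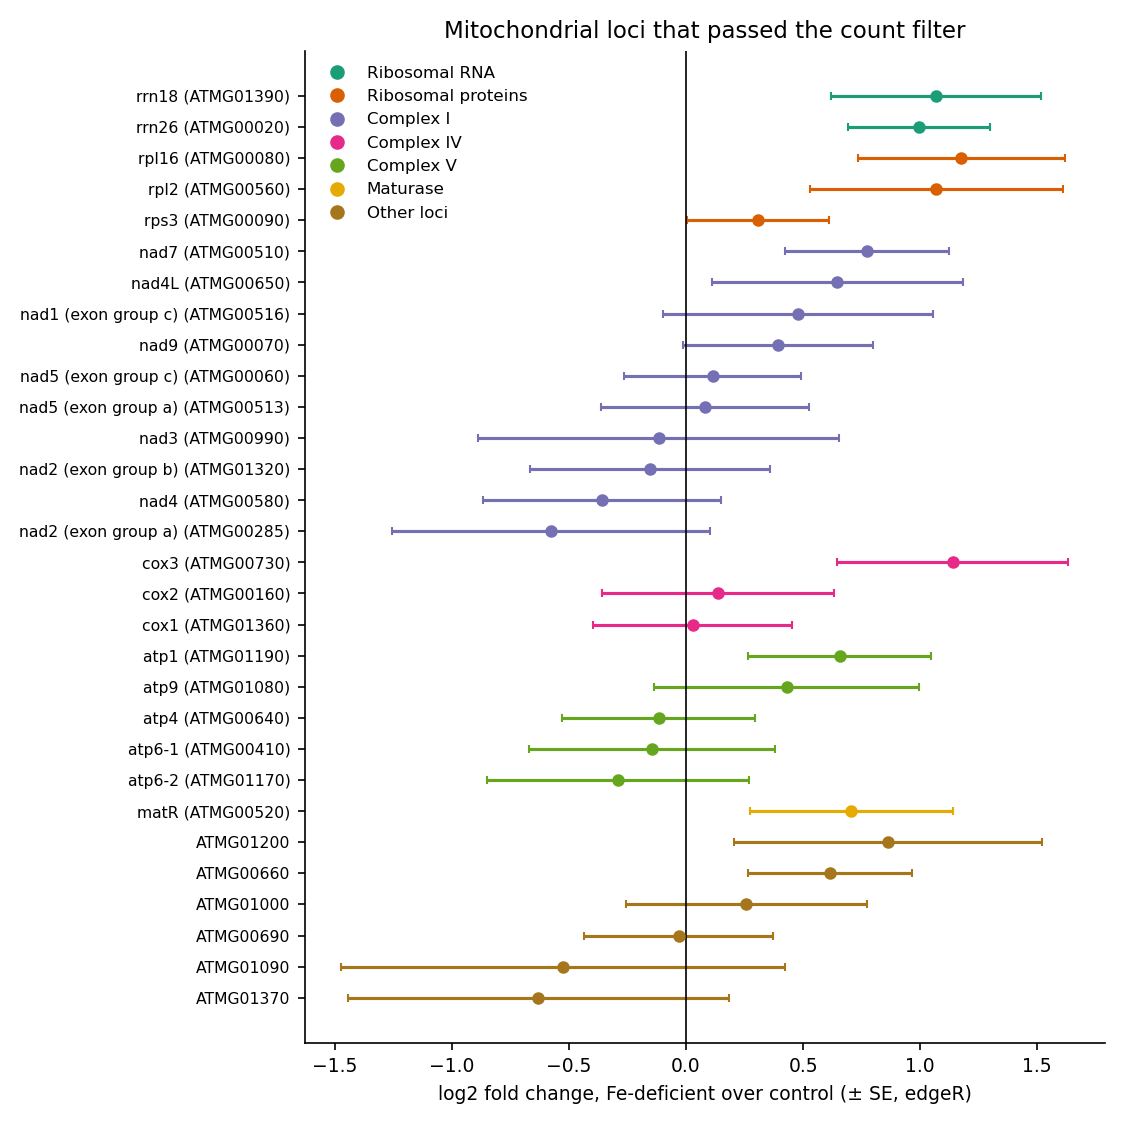
The log2 fold change of Fe-deficient over control from edgeR, with an SE derived from its F statistic, for the 30 tested mitochondrial loci, ordered and coloured by role. The ribosomal RNAs, rpl16, rpl2 and cox3 have log2 fold changes from 1.00 to 1.18, and no locus passed an adjusted p of 0.05.

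Levels of different genes can be set side by side only per length, in TPM, the deposited measure scaled for length and library size. The mean TPM over the 6 libraries was 195 for rrn18, 133 for rrn26 and 96.5 for rrn5. The value of rrn5 rests on 5 to 15 counts per library over only 118 bases, and rrn5 did not pass the count filter. After the ribosomal RNAs came nad3 with 36.3, followed by ATMG01000 with 19.2. The cytochrome oxidase genes were at 3.04 (cox2), 2.23 (cox1) and 0.647 (cox3), and atp9 at 6.92. Levels of genes with a nuclear copy hold only the part of the reads assigned to the mitochondrial locus. The kit selects poly(A) RNA, so this order is that of the RNA captured and may differ from that of all mitochondrial transcripts.

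Counted together with their nuclear copies, 17 of the 21 genes passed the filter, and none had an unadjusted p under 0.05 in edgeR, against 13.4% of all loci in that fit. The lowest adjusted p was 0.422, for cox3. Of the 17, 14 had a positive log2 fold change (82.4%, against 50.3% of all loci). By class, the sums with copies overlapped between groups in all 7 classes that could be formed, and complex I then had 51.4, 49.1 and 42.6 CPM in Fe-deficient libraries, against 48.5, 49.8 and 30.0 in controls.

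Nuclear genes for the same complexes were set beside the mitochondrial ones. Of 50 nuclear loci for respiratory subunits, assembled from complexes I to V, 49 were tested and none passed an adjusted p of 0.05 in edgeR. A positive log2 fold change was found for 45 (91.8%, against 50.3% of all loci), and 4 were negative. The median was 0.22. The number of positive ones depends on the scaling. With plain library totals 37 were positive (75.5%, against 35.3% of all loci), and in TPM 22 (44.9%, against 29.1%). The median in TPM was -0.01, where that of all loci was -0.20. On each of these scales the positive share was above that of all loci. The nuclear complex I subunits (17 loci) summed to 2255, 2138 and 1978 CPM in Fe-deficient libraries, against 2044, 2108 and 2059 in controls. Nuclear complex V subunits (9 loci) summed to 2869, 2609 and 2437 in Fe-deficient libraries, against 2447, 2482 and 2494 in controls. In both lists Fe-deficient 3 was the lowest library, as it was for late pollen markers within its group, and the part of that was not tested.

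The nuclear gene COX5b-1 (AT3G15640), a subunit of complex IV, had 137, 119 and 115 CPM in Fe-deficient libraries, against 102, 112 and 99.9 in controls. Its log2 fold change was 0.41 (SE 0.16, unadjusted p = 0.0411, adjusted p = 0.366, edgeR), and the groups did not overlap. It was the only 1 of the 49 with all Fe-deficient libraries above all controls in CPM, as 5.89% of all tested loci were, and 3 of the 49 had all Fe-deficient libraries below all controls, as 16.6% of all loci had. One of these 3 was COX5c-3 (AT5G61310), also of complex IV, with 14.4, 18.2 and 17.4 in Fe-deficient libraries, against 24.4, 25.5 and 21.8 in controls (log2 fold change -0.36, SE 0.15, unadjusted p = 0.0511, adjusted p = 0.372, edgeR). The Rieske iron-sulphur protein gene of complex III, RISP-1 (AT5G13430), had 174, 147 and 128 in Fe-deficient libraries, against 112, 135 and 114 in controls (log2 fold change 0.49, adjusted p = 0.372, edgeR). The flavoprotein gene of complex II, SDH1-1 (AT5G66760), had 438, 305 and 256 in Fe-deficient libraries, against 262, 271 and 292 in controls. In both genes the groups overlapped at Fe-deficient 3. In the complex V list, ATP2-3 (AT5G08680), a beta subunit gene, had 474, 356 and 288 in Fe-deficient libraries, against 266, 292 and 316 in controls, and its paralog ATP2-1 is similar in sequence.

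Nuclear genes that act on mitochondrial RNA and DNA mostly had negative log2 fold changes. Of 17 genes for mitochondrial gene expression (such as polymerases, maturases, and editing and splicing factors), 3 had a positive and 14 a negative log2 fold change, where 50.3% of all loci had a positive one. Their median was -0.11, and none passed the test. All 17 were negative with plain library totals and in TPM, scales on which most loci were negative (35.3% of all loci were positive with totals and 29.1% in TPM). Of 6 genes for maintenance of mitochondrial DNA, all 6 were negative (median -0.19). Among them MSH1 (AT3G24320), which suppresses recombination in the mitochondrial genome, had 13.5, 12.3 and 15.7 CPM in Fe-deficient libraries, against 26.3, 22.0 and 20.2 in controls. All Fe-deficient libraries were below all controls (16.6% of all tested loci were), and the log2 fold change was -0.57 (SE 0.16, unadjusted p = 0.00996, adjusted p = 0.329, edgeR).

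The DNA polymerase gene POLIB (AT3G20540) had 16.0, 17.4 and 55.4 CPM in Fe-deficient libraries, against 51.5, 35.1 and 43.1 in controls. Fe-deficient 1 and 2 were low and Fe-deficient 3 lay above the controls. The summed list for gene expression had the same order, with 225, 237 and 465 in Fe-deficient libraries, against 391, 322 and 337 in controls. Fe-deficient 1 and 2 are the libraries with the most late pollen marker RNA and the least tapetum marker RNA, and the part of that in these values was not tested.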

How the data were processed

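RNA of whole anthers was sequenced single-end in 3 Fe-deficient and 3 control libraries, grouped by sample titles. Per the submitters' processing notes, Trimmomatic 0.35, Salmon 0.12.0 and the TAIR10 build were used. Per the file headers, the authors deposited estimated counts and TPM per transcript, with transcript and effective length as other columns. The 41086 transcripts were added up to 33027 loci. Of the 720 mitochondrial values, 77.4% were whole within 0.001. No source used here gives the strand setting, so antisense genes cannot be told apart.

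Counts rounded to whole numbers were tested with edgeR 4.0.16 (R 4.3.3, quasi-likelihood, TMM, filterByExpr, group only), with Benjamini-Hochberg adjustment over all tested loci at 0.05 and TMM factors from 0.884 to 1.06. The SE given with edgeR was derived, as the absolute log2 fold change divided by the square root of the F statistic. The test with limma 3.58.1 used deposited TPM on the log2 scale (pseudocount 1 or 0.1), and DESeq2 1.42.0 used the counts. Nuclear copies were found with blastn 2.17.0 against TAIR10.1 RefSeq transcripts. Its mitochondrial sequence is another record than that of TAIR10 and carries no ATMG identifiers, so no mitochondrial coordinates are given. Of 41 listed genes, 38 were in the tables, and 21 of these had the RefSeq length, while rrn26 is listed at 2568 bases and RefSeq gives 3169.

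Members and lists were chosen with earlier results of these data known. Named were the ribosomal RNAs, per role class the 3 highest and up to 2 with the lowest p (5 and 3 of unlisted loci), fixed subunit genes, and up to 2 nuclear partners per list. Sums over loci were not tested.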

Additional observations from a re-analysis of the deposited data

How the results depend on the processing

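No mitochondrial locus passed an adjusted p of 0.05 in the main analysis or in any alternative run. Over all loci, DESeq2 called 717, limma on log2(TPM + 1) called 3 and limma on log2(TPM + 0.1) called 2, against 0 in edgeR, and no library left out in turn gave a call (0 to 0). Depth limits the precision of the messenger loci, of which only nad3 and atp1 reached 100 counts in any library. Neither rrn18 nor rrn26, with at least 4532 counts in every library, was called. The adjusted p of rrn26 was 0.0524 in DESeq2. Without Fe-deficient 3 it was 0.098 in edgeR, where the lowest of all loci was 0.0859.

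The ratio of Fe-deficient over control means for the mitochondrial sum (1.74) was 1.25 in TPM, 1.04 without ribosomal RNA, 1.59 with the loci AT2G07667 to AT2G07835 added and 1.68 with the aligned copies added, an alternative chosen after seeing the data. That number range was not run by class, since its loci have no role. Ribosomal proteins (1.30) were at 1.09 with aligned copies. Ribosomal RNA as a share of mitochondrial counts (1.03) was at 1.08 in TPM. Respiratory subunits as such a share (0.66) were at 0.99 with ribosomal RNA left out. The mitochondrial sum in TPM includes the short rrn5, at a mean of 79.0 in Fe-deficient libraries against 114 in controls. These values of rrn5 rest on 5 to 15 counts per library. In mean TPM rrn18 was at 248 in Fe-deficient libraries against 142 in controls, and rrn26 at 167 against 98.9.

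Of the single loci named, nad3 (-0.12 on the log2 scale) turned to 0.025 with the replicate number as a block and 0.11 with limma-voom. The block added no call. Deviations from the group mean correlated at -0.18, 0.43 and -0.12 for same-numbered libraries, and at -0.34 to 0.34 for other pairs. With 3 libraries per group, these values cannot decide whether the numbers pair the libraries. With plain library totals cox2 was -0.051 and cox1 -0.16. With limma they were -0.087 and -0.13 (TPM + 1) and -0.12 and -0.18 (TPM + 0.1). With nuclear copies counted in, nad4 (-0.36) was at 0.39, where the counted copy is 5949 bases long against 1488 for nad4. The cause of these turns was not tested. Leaving out each library in turn, ratios ranged from 1.28 to 2.01 for the mitochondrial sum, 1.30 to 2.10 for ribosomal RNA, 0.817 to 1.18 for complex I, 0.661 to 1.24 for cytochrome c maturation and 0.774 to 1.10 for other loci. Log2 fold changes that turned ranged from -0.14 to 0.47 for cox2, -0.51 to 0.085 for atp6-1, -0.26 to 0.17 for ATMG00690, -0.81 to 0.25 for nad3, -0.14 to 0.52 for ATMG01000, -0.79 to 0.10 for atp6-2, -0.23 to 0.29 for cox1 and -1.81 to 0.056 for ATMG01370.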
